A study of Chlamydomonas reinhardtii with 6 samples.

Results

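Expression was examined for 2 of the 17741 genes in the count table, both linked to the wall and matrix around the algal cell. Cre01.g049950 was taken as VLE1, which encodes sporangin, the protease that frees daughter cells. Cre01.g049826 was taken as a gene of the DUF3707 (pherophorin) family in which the study lists variants shared by cell group isolates. Both were picked by identifier with earlier results of the same libraries known, including how cell groups and single cells differ. That difference is therefore given as a description, without a p-value, while comparisons between treatments were tested. The reference table used here (RefSeq, annotation v5.5) holds no gene names, so the names rest on the choice of the genes and on the study's text.

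*Chlamydomonas reinhardtii* divides by multiple fission, in which a mother cell splits repeatedly inside its own wall. The daughters leave when sporangin, a subtilisin-like serine protease also called the vegetative lytic enzyme, digests that wall. Pherophorins are secreted glycoproteins rich in hydroxyproline that build the extracellular matrix of volvocine algae, and DUF3707 is the name of their characteristic domain. Groups of cells can arise when daughters stay together after division.

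The libraries came from 1 cell group isolate and 1 single cell isolate, taken from selection lines that were both started with strain cc1009. The cell group isolate evolved with the rotifer *Brachionus calyciflorus* as predator and the single cell isolate evolved without it. Each isolate grew in chemostats for 10 days and was then kept for 5 days with rotifers added (80 µM nitrogen), with low nitrogen (40 µM) or unchanged as control (80 µM). RNA from the replicate chemostats of a treatment was pooled, which gave 6 libraries, 1 for each morphotype in each treatment. A difference between morphotypes is thus a difference between these 2 isolates, and the 3 treatments take the place of replicates within a morphotype. The isolate and its history of predation cannot be told apart. Libraries held between 5453218 and 9054895 counts on genes, and the rotifer library was the smallest of each morphotype. The labelled cells were not checked against marker genes, because the reference table used here pairs no identifier with a gene name.

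The study places an A-to-G change that swaps a threonine for an alanine in Cre01.g049826, and a TT-to-CG change that swaps a leucine for an arginine. Whether the transcripts counted here carry these changes was not examined. On chromosome 1 of the v5.5 assembly, the gene runs from position 6879928 to 6923528. Its span, introns included, is 43601 bases, and only 6 of 17738 genes in the table span more, against a median of 4300 bases. VLE1 lies from position 6928626 to 6936822, a span of 8197 bases. VLE1 and Cre01.g049826 are near neighbours, 5097 bases apart, and a single gene, Cre01.g049900, is annotated between them. No other annotated gene overlaps the span of either.

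Cell groups carried several times more VLE1 transcript than single cells in every treatment. Expressed as CPM (counts scaled to a common library size, with edgeR's TMM factors), VLE1 reached 501 CPM under rotifers, 326 CPM under low nitrogen and 536 CPM in control in cell groups. In single cells it reached 109 CPM under rotifers, 69.9 CPM under low nitrogen and 96.8 CPM in control. The groups did not overlap, and the lowest cell group library stood 2.99-fold above the highest single cell library. These levels rest on 2622, 2710 and 4019 counts in cell groups and 612, 594 and 941 counts in single cells, in the same order of treatments. In bulk RNA, more cells at the stage that makes the enzyme and more RNA per such cell cannot be told apart.

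The matrix gene Cre01.g049826 was likewise higher in cell groups throughout. It reached 312 CPM under rotifers, 154 CPM under low nitrogen and 184 CPM in control in cell groups. In single cells the values were 92.9 CPM under rotifers, 40.8 CPM under low nitrogen and 41.3 CPM in control. Again the groups did not overlap, but here the gap was narrower, with the lowest cell group library 1.66-fold above the highest single cell library. Of the 14136 genes tested, 16.4% had every cell group library above every single cell library. Since the 2 genes were chosen with this comparison known, nothing is read from their place among these genes. The study itself set its variants of interest against transcript levels in the morphotypes and reported no significant difference. Its text does not name the genes in that comparison.

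**Figure D1:**
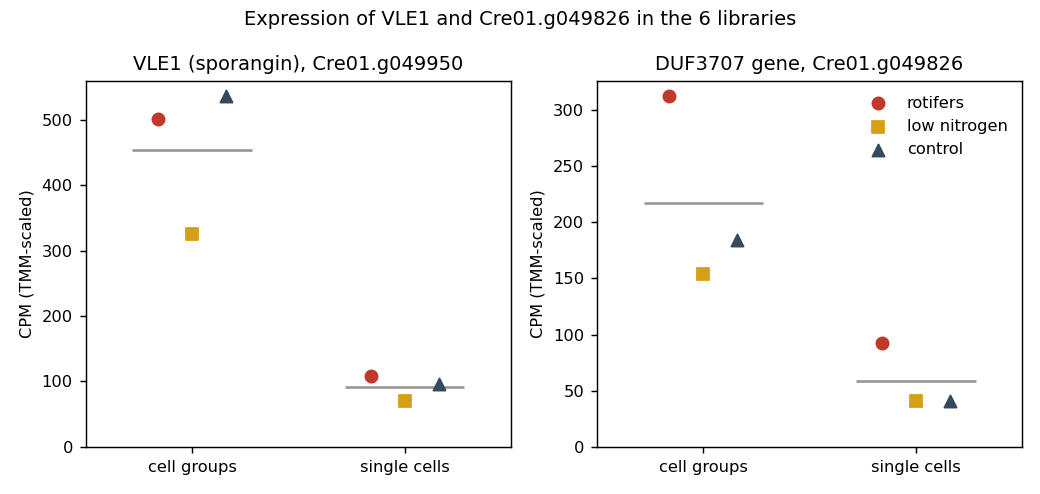
Expression (TMM-scaled CPM, linear axis from 0) of VLE1 (left) and Cre01.g049826 (right) in cell groups and single cells, with 1 point per library, coloured by treatment, and a grey line at the mean of the 3 libraries. For VLE1 the cell group libraries sit between 326 and 536 CPM and the single cell libraries between 69.9 and 109 CPM; for Cre01.g049826 the rotifer library is the highest in both morphotypes.

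Every treatment showed the difference between morphotypes, with a range from 4.60-fold to 5.53-fold for VLE1 and from 3.36-fold to 4.47-fold for Cre01.g049826. For VLE1, cell groups exceeded single cells 4.60-fold under rotifers (95% interval from counting error 4.21 to 5.03), 4.67-fold under low nitrogen (4.27 to 5.11) and 5.53-fold in control (5.15 to 5.95). Counting intervals were exact binomial ones and cover counting error only, not variation between chemostats. For Cre01.g049826 the folds were 3.36 under rotifers (3.04 to 3.71), 3.78 under low nitrogen (3.35 to 4.27) and 4.47 in control (4.0 to 5.01). On the scale of log2(CPM + 0.5), the difference averaged 2.29 ± 0.15 for VLE1 and 1.93 ± 0.20 for Cre01.g049826 (SD over 3 treatments). The median SD of this difference over all tested genes, not matched for count level, was 0.49. Since the genes were chosen with the morphotype difference known, nothing is read from their SD being smaller. In the fit across all genes, with treatment as a covariate, the log2 fold change of cell groups over single cells was 2.30 (standard error 0.26) for VLE1 and 1.94 (standard error 0.26) for Cre01.g049826. On the log2 values normalized by the authors the difference was smaller, from 1.32 to 1.58 for VLE1 and from 1.11 to 1.31 for Cre01.g049826. By counts, both folds were greatest in control, and no test of a difference between treatments was possible with 1 library each.

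The treatment with the extreme level differed between the 2 genes. Low nitrogen went with the lowest VLE1 level in both morphotypes, and rotifers went with the highest Cre01.g049826 level in both. VLE1 under low nitrogen stood at 0.608 of its control level in cell groups (0.579 to 0.639) and at 0.722 in single cells (0.650 to 0.801). Of all tested genes, 25.1% were below control under low nitrogen in both morphotypes. Under rotifers VLE1 stood close to control, at 0.935 of control in cell groups (0.890 to 0.983) and 1.13 times control in single cells (1.01 to 1.25). With TMM scaling the sign of that difference was therefore opposite in the morphotypes, and the difference fitted over both was 0.03 on the log2 scale. The authors' normalized log2 values kept the opposite signs. As a share of library totals, VLE1 under rotifers was below control in both morphotypes. It held 0.0481% against 0.0510% in cell groups and 0.00975% against 0.0104% in single cells. Scaled by library totals only, the fitted difference was -0.090. That scaling lowered the median of all genes from -0.016 to -0.14 as well, and VLE1 lay above that median either way.

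Cre01.g049826 under rotifers stood at 1.69 times its control level in cell groups (1.57 to 1.82) and at 2.25 times in single cells (1.97 to 2.57). Rotifer levels above control in both morphotypes were found for 26.5% of the tested genes. Under low nitrogen the gene stayed near control, at 0.836 of it in cell groups (0.774 to 0.903) and 0.989 in single cells (0.854 to 1.15). In single cells the low-nitrogen and control libraries, lowest in the order of levels, did not differ beyond counting error. All other neighbours in the order of the 6 libraries, for both genes, did so with the TMM factors taken as exact. For VLE1 in single cells, the step between rotifers and control depends on that scaling. As shares of library totals it was 0.00975% under rotifers (0.00900 to 0.0106) and 0.0104% in control (0.00974 to 0.0111). The order was then reversed and the counting intervals overlapped.

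**Figure D2:**
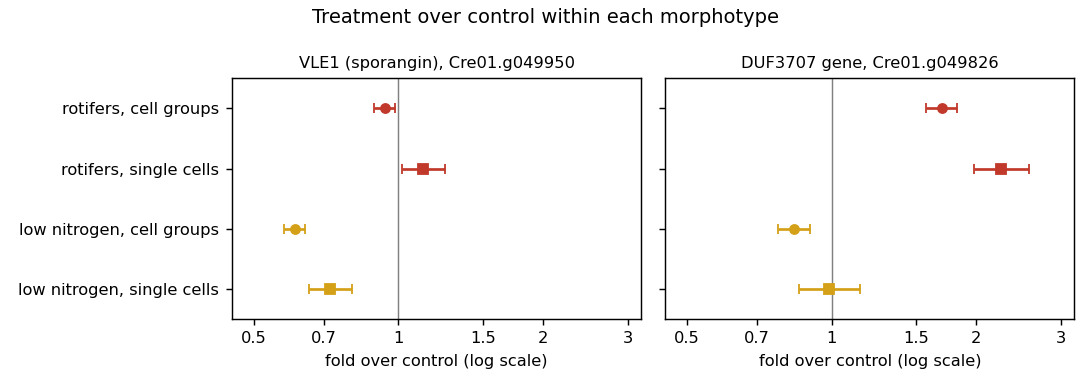
Fold over control (log axis) under rotifers and low nitrogen, for VLE1 (left) and Cre01.g049826 (right), in cell groups (circles) and single cells (squares), each from 1 library over 1 library, with bars for the 95% counting interval. VLE1 lies below 1 under low nitrogen in both morphotypes, at 0.608 and 0.722, and Cre01.g049826 lies above 1 under rotifers in both, at 1.69 and 2.25.

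No treatment difference of either gene passed the test once the spread between libraries was taken in. With morphotype as a covariate in edgeR's quasi-likelihood test, the log2 fold change of Cre01.g049826 for rotifers over control was 0.96 (standard error 0.31, 95% interval 0.23 to 1.69). Its unadjusted p was 0.0172 and its Benjamini-Hochberg adjusted p was 0.663. It was higher in 2 of 2 morphotypes. For VLE1 the same comparison gave 0.03 (interval -0.70 to 0.77, edgeR adjusted p = 0.982). Low nitrogen over control gave -0.60 for VLE1 (interval -1.33 to 0.14, edgeR adjusted p = 0.853) and -0.14 for Cre01.g049826 (interval -0.87 to 0.58, edgeR adjusted p = 0.955). The intervals remained wide, since each treatment had 1 library per morphotype.

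With edgeR no gene passed in either treatment comparison. For rotifers over control edgeR called 0 of 14136 genes (0%), with 1019 at an unadjusted p under 0.05, while DESeq2 called 83 and limma 0. For low nitrogen over control edgeR again called 0 (0%), with 816 at an unadjusted p under 0.05, while DESeq2 called 53 and limma 0. These counts of 0 did not hold when the cell group control library was left out. Control is then held by the single cell library alone, so the comparison and its spread are not those of the full fit. Leaving out the single cell control library instead, which leaves control to the cell group library alone, did not change these counts. The reason why these omissions differed was not tested. Both rotifer libraries were the smallest of their morphotype. The study also reports possible contamination of its rotifer samples, in which relatively more reads failed to align to the algal genome. The part of library size and of contamination in the level of Cre01.g049826 was not tested.

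VLE1 and Cre01.g049826 did not keep a fixed proportion to each other. Within a library, the ratio of VLE1 counts to Cre01.g049826 counts needs no scaling for depth, although its level depends on the lengths of the transcripts. In cell groups it was 1.61 under rotifers (1.51 to 1.71), 2.11 under low nitrogen (1.98 to 2.26) and 2.91 in control (2.73 to 3.09). In single cells it was 1.17 under rotifers (1.04 to 1.32), 1.71 under low nitrogen (1.5 to 1.96) and 2.35 in control (2.09 to 2.64). The rotifer library thus had the lowest ratio and the control library the highest in both morphotypes. The counting intervals of the 3 treatments did not overlap within either. With 1 library for each morphotype in each treatment, a difference of the ratio between treatments was not tested. Between morphotypes the ratio differed less, being 1.37-fold higher in cell groups under rotifers, 1.23-fold under low nitrogen and 1.24-fold in control.

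The gene lying between the 2 genes did not share their difference. Cre01.g049900, at position 6924508 to 6928437, starts 979 bases past the end of Cre01.g049826 and ends 188 bases before VLE1. It had 35.6, 22.8 and 33.6 CPM in cell groups under rotifers, under low nitrogen and in control, against 57.8, 55.9 and 47.8 CPM in single cells. Every cell group library was thus below every single cell library, as for 14.2% of the tested genes. Its log2 fold change of cell groups over single cells was -0.83 (standard error 0.27), which did not pass (edgeR adjusted p = 0.113).

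Set against this neighbour inside each library, VLE1 stood apart more than on the scaled values. That follows from the neighbour itself being lower in every cell group library. The neighbour was taken as denominator after seeing the data, so the wider gap is no separate support. The count ratio of VLE1 to Cre01.g049900 was 14.1, 14.3 and 15.9 in cell groups under rotifers, under low nitrogen and in control, against 1.88, 1.25 and 2.02 in single cells. The ratio of Cre01.g049826 to Cre01.g049900 was 8.78, 6.75 and 5.49 in cell groups, against 1.61, 0.731 and 0.862 in single cells. No scaling of library size enters these ratios, both of which were higher in every cell group library than in any single cell library. In single cells Cre01.g049826 had fewer counts than the gene between under low nitrogen and in control.

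**Figure D3:**
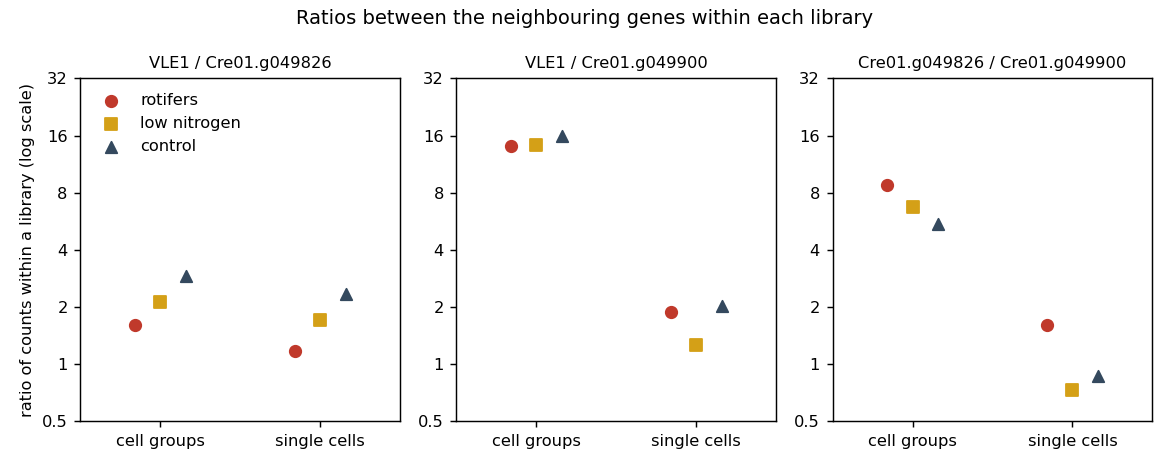
Ratios of counts within each library (log axis) between VLE1, Cre01.g049826 and the gene between them, Cre01.g049900, for cell groups and single cells, with 1 point per library coloured by treatment. Both ratios to Cre01.g049900 are far apart between morphotypes (VLE1: 14.1 to 15.9 in cell groups, 1.25 to 2.02 in single cells). Cre01.g049900 was itself lower in cell groups, which widens that distance. The ratio of VLE1 to Cre01.g049826 was lowest in the rotifer library and highest in the control library of each morphotype.

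In the chromosome segment around the 2 genes, the share of other genes called lay near that of the genome, which is no result about the segment. The segment held 23 genes, from 10 before Cre01.g049826 to 10 after VLE1, over 155823 bases. Of the 21 genes other than these 2, 19 had enough counts to be tested. Among the tested genes of the genome 7.62% were called in the comparison of morphotypes, 4.76% higher and 2.86% lower in cell groups. That number, 1077 genes, was as low as 137 (without the single cell rotifer library) and as high as 1999 (without the cell group control library) when libraries were left out. In the segment 1 neighbour was called and 0 were higher, and 3 of 19 had an unadjusted p under 0.05 (edgeR), against 3545 of 14136 over all tested genes. DESeq2 and limma likewise called 1 neighbour and 0 higher. Over the 19 neighbours the absolute log2 fold change had a median of 0.39, against 0.46 over all tested genes.

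The neighbour that passed was Cre01.g050400 (position 6977168 to 6979351), which was lower in cell groups, with a log2 fold change of -1.56 (standard error 0.30, edgeR adjusted p = 0.0298). Its adjusted p ran from 0.000571 to 0.162 over the alternatives, and the call was lost without either rotifer library or either low-nitrogen library. Leaving out 1 library of a treatment removes that treatment from the comparison, since its other library then has no counterpart. No gene of the segment passed for rotifers or for low nitrogen over control.

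**Figure D4:**
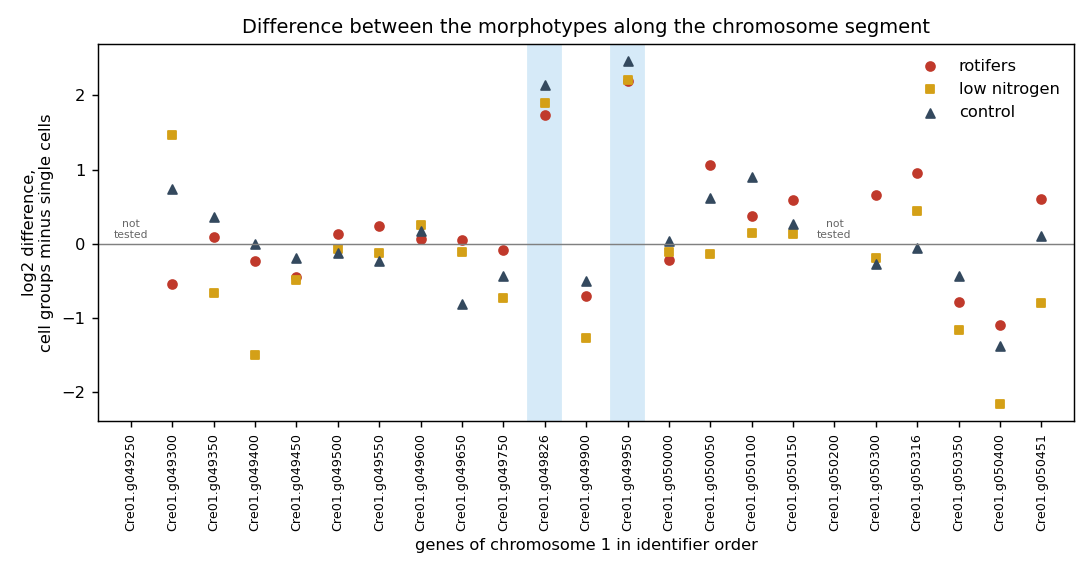
Log2 difference of cell groups minus single cells, on log2(CPM + 0.5), for the genes of the segment in identifier order, with 1 point per treatment and VLE1 and Cre01.g049826 shaded. These lie between 1.74 and 2.46, whereas the gene between them lies from -1.27 to -0.50; genes marked as not tested had too few counts.

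Across the 6 libraries, the profiles of the 2 genes on log2(CPM + 0.5) had a Pearson r of 0.935, a description over libraries that share the step between morphotypes. Many other genes resembled each of them as much. Among 9187 other genes with a mean of at least 10 CPM, Cre01.g049826 was in place 301 of likeness to VLE1, and VLE1 in place 150 of likeness to Cre01.g049826. An r of 0.9 or more was reached by 519 genes (5.65%) with VLE1 and by 308 (3.35%) with Cre01.g049826.

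The genes most like VLE1 were Cre06.g268800 on chromosome 6 (r = 0.997) and Cre12.g542900 on chromosome 12 (r = 0.997). Cre06.g268800 lay between 134 and 154 CPM in cell groups and between 70.1 and 82.4 CPM in single cells. Cre12.g542900 lay between 84.8 and 131 CPM in cell groups and between 17.4 and 24.4 CPM in single cells. Both were picked by likeness to VLE1 over these libraries, so the lack of overlap between their groups largely follows from the choice. Of all tested genes, 16.4% had every cell group library above every single cell library. The size of the step differed between Cre06.g268800 and Cre12.g542900. The genes most like Cre01.g049826 were Cre07.g321750 on chromosome 7 (r = 0.992) and Cre03.g213425 on chromosome 3 (r = 0.992). Cre07.g321750 lay between 19.7 and 72.1 CPM in cell groups and between 0.235 and 7.30 CPM in single cells, the lowest being under the floor of 3 counts. Cre03.g213425 lay between 13.2 and 14.5 CPM in cell groups and between 10.2 and 12.1 CPM in single cells, a small step. The 5 genes most like each of them had r between 0.993 and 0.997 for VLE1 and between 0.990 and 0.992 for Cre01.g049826, with 0 genes in both sets.

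Of 3 other wall and matrix genes in which the study names variants, 2 had few counts in every library. Cre06.g290676, which the study also counts as DUF3707, had between 5 and 12 counts per library in cell groups and between 0 and 8 in single cells. Cre10.g431050, named there as another glycoprotein gene, had between 5 and 11 counts in cell groups and between 4 and 28 in single cells. Both were too low to be tested, so a difference was not detectable at this depth. Cre12.g522650, named for a 5′ region linked to matrix protein genes, had between 314 and 454 counts in cell groups and between 383 and 929 in single cells. Its log2 fold change was -0.27 (standard error 0.28, edgeR adjusted p = 0.612), so that 1 of these 3 genes was tested and it did not pass. In single cells its counts were of the size of those of Cre01.g049826, which had between 347 and 522.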

How the data were processed

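The 6 libraries were grouped by the morphotype and treatment in their labels. The authors aligned reads passing FastQC to the *Chlamydomonas* genome v5.0 using hisat2, and HTSeq gave counts per gene. The deposited counts are whole numbers without normalization. Tool versions and the strand setting are not given in the sources used here. The authors also deposited log2 values normalized with DESeq2, used here for 1 alternative. The authors' table of fold changes and p-values and, in the count table, their 3 columns of means for each treatment were not used. Their means for each morphotype were only set against the libraries. The sample records and the methods differ on the number of chemostats.

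Genes with at least 1.30 CPM (10 counts in the median library) in 3 libraries and 15 counts in all were kept, 14136 of 17741. Library sizes were scaled by TMM. Contrasts were fitted with edgeR 4.0.16 (glmQLFit and glmQLFTest) in R 4.3.3 over all 6 libraries, with treatment as covariate for morphotype and morphotype as covariate for treatment, and p-values were adjusted by Benjamini-Hochberg at 0.05. The spread was estimated from the departures of libraries from these additive fits, in the absence of replicate libraries. DESeq2 1.42.0, limma 3.58.1, other scalings, no filter, no covariate and the omission of each library were tried as alternatives. The fits were also run on simulated counts with known changes. Those counts were drawn independently with a fixed spread, so they do not show how the fits behave on pooled libraries without replicates. A floor of 3 counts corresponded to 0.331 to 0.550 CPM.

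The 2 genes and the lists were chosen with earlier results of these data known. Named were both, called genes of each list (at most 4 in each direction), and the 5 genes most like each by Pearson r, of which 2 each are printed. The planned lists of homologous proteins, wall genes, cell cycle genes and marker genes needed protein sequences or gene names that the reference table used here does not hold, and were not analysed here.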

Additional observations from a re-analysis of the deposited data

Results flagged for a closer look

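With TMM scaling, the difference of VLE1 between rotifers and control had opposite signs in the morphotypes. On log2(CPM + 0.5) it was -0.10 in cell groups and 0.17 in single cells, a gap of -0.27 for cell groups minus single cells. The authors' normalized log2 values kept the opposite signs. As shares of library totals, VLE1 was below control under rotifers in both morphotypes, so the opposite signs depend on the scaling. With 1 library for each morphotype in each treatment the gap was not tested.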

How the results depend on the processing

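The log2 fold change of cell groups over single cells kept its direction under all 12 alternatives, at 2.17 to 2.34 for VLE1 and 1.79 to 2.04 for Cre01.g049826. The rotifer difference of Cre01.g049826 stayed between 0.80 and 1.16 (adjusted p 0.111 to 1) and the low-nitrogen difference of VLE1 between -0.72 and -0.46 (adjusted p 0.545 to 1), none passing. The rotifer difference of VLE1 turned to -0.053 without the morphotype covariate and to -0.090 with library totals only, which moved the median of all genes to -0.14, and ran from -0.091 to 0.19 as libraries were left out. The low-nitrogen difference of Cre01.g049826 ran from -0.30 to 0.032 as libraries were left out, positive only without the cell group control library. Genes called between morphotypes numbered 1732 with DESeq2 and 137 to 1999 as libraries were left out. For rotifers DESeq2 called 83 and the omission of libraries gave 0 to 1011, and for low nitrogen 53 and 0 to 614. The mean log2 difference between morphotypes was 1.42 for VLE1 and 1.19 for Cre01.g049826 on the authors' normalized log2 values, and 3.13 and 2.78 as a ratio to Cre01.g049900, an alternative chosen after seeing the data. The ratio to Cre01.g049900 gave the larger values because that gene was itself lower in cell groups. The causes of the other shifts were not tested. The treatment covariate already sets the libraries of a treatment against each other. No further pairing was possible, because each morphotype had 1 pooled library per treatment. A stricter protein match was not run, for want of protein sequences. With 1 isolate of each morphotype and pooled chemostats, variation between isolates and between chemostats was not measured.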

Other observations

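In the deposited table of normalized log2 values, the columns of means headed for the morphotypes held the mean of the other morphotype, within a tolerance of 0.001, for 100% of 16528 genes. For VLE1 the column headed for cell groups held 9.86 and that for single cells 11.3, whereas the libraries themselves averaged 11.3 in cell groups and 9.86 in single cells. For Cre01.g049826 the columns held 9.04 for cell groups and 10.2 for single cells, against library averages of 10.2 in cell groups and 9.04 in single cells. In the count table each such column matched its own morphotype for 100% of 17741 genes. No value in the text was taken from these columns other than those named here.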
